A study of Mus musculus with 11 samples.

Results

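The genes described here were 10 components of the Notch pathway, read in bulk RNA-seq of mouse livers in which YAP, a transcriptional co-activator restrained by the Hippo pathway, was switched on for 3 or 7 days. They were the receptors Notch1, Notch2 and Notch3, the ligands Jag1, Jag2 and Dll4, the target genes Hes1, Hey1 and Heyl, and the DNA-binding factor Rbpj. They were picked by gene symbol as the core of the pathway and not by their levels, though with earlier results of these data known. They made up 10 of the 20893 genes listed in the expression table. Each symbol had a value in the table, and 9 of the 10 passed the filter on low values used for testing, Jag2 being the exception.

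The data were 11 liver libraries from mice on a C57BL/6 background, all carrying the ROSA26-rtTA-IRES-EGFP allele, which makes the doxycycline-dependent activator rtTA, and all fed doxycycline. The control group was 4 livers of mice labelled WT, without the YAP transgene, after 7 days of doxycycline food. The YAP groups were 4 livers after 3 days and 3 livers after 7 days of the same food, from mice that also carried tetYAP, a transgene for a constitutively active YAP driven by rtTA. In this cross rtTA is released by a Cre under the albumin promoter, so the transgene is meant for hepatocytes. Ages were not given in the sources used here, nor whether the controls carried the Cre, and both times of induction are set against the same controls.

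Notch receptors are single-pass membrane proteins that bind ligands of the Jagged and Delta-like families on a neighbouring cell. Binding exposes the receptor to ADAM proteases and then to gamma-secretase, which frees its intracellular domain to enter the nucleus, join Rbpj and Mastermind-like co-activators, and turn on repressors of the Hes and Hey families. In the liver the pathway is best known for its part in forming the bile ducts, where loss of JAG1 or NOTCH2 function causes Alagille syndrome, and for signalling among endothelial and perivascular cells.

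The reads assigned to genes, recovered from the steps of the deposited values, ranged from 1274760 to 5575498 in the control libraries, from 2703754 to 3739483 at 3 days and from 5382748 to 6016970 at 7 days. Control liver 4 was the shallowest library. It had the lowest level of Notch1, Notch2, Jag2, Dll4, Hes1, Hey1, Heyl and Rbpj among the 4 controls. Sex was read from whether Xist exceeded Ddx3y in a library. By this rule the 7-day livers were all from females, while the controls and the 3-day livers were each 2 from females and 2 from males. The endogenous Yap1 gene lay at 13.9 to 21.1 eRPKM in the controls, 15.3 to 19.3 after 3 days and 17.4 to 19.0 after 7 days, and since the sources used here do not state whether transgene reads fall on this gene it gave no check of the induction. Levels are given in eRPKM, reads per kilobase of exon scaled to the reads of the library, so that genes of different length can be set side by side. Because the samples were whole livers, fewer cells of a type and less RNA per cell cannot be told apart in any value below.

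Within the controls, Notch2 was the most abundant of the 10 genes, with a mean of 20.6 ± 4.98 eRPKM (SD, n = 4). Hes1, Rbpj and Notch1 followed with means of 9.40, 8.50 and 8.34 eRPKM, and their ranges overlapped, so their order was not resolved. Dll4 (4.33) and Jag1 (3.60) came next, again with overlapping ranges. Notch3, Heyl and Hey1 lay near 1 eRPKM (means of 1.53, 1.34 and 0.698) and Jag2 was lowest at 0.139 eRPKM. At 7 days only Notch2 and Hes1 had a higher mean level than Jag1, at 21.1 eRPKM, which lay beside Notch1 at 18.9 with a range that spanned that of Notch1.

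**Figure D1:**
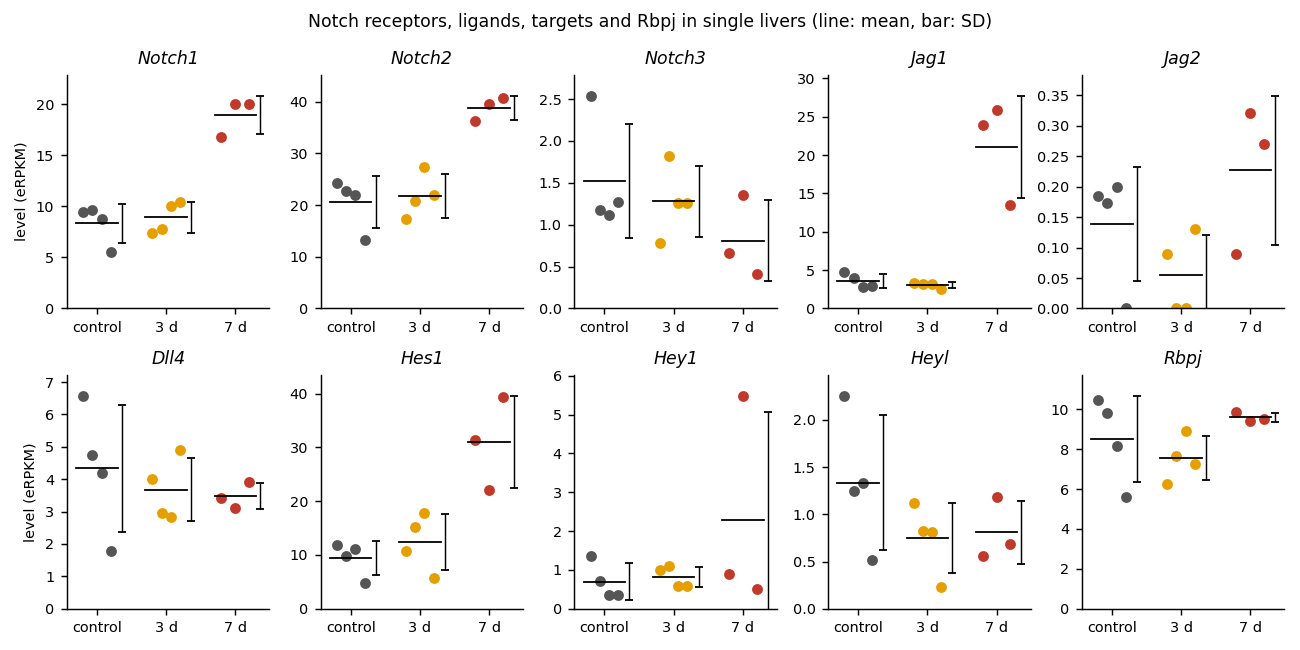
Level of each gene (eRPKM, linear axes from 0) in every liver of the control (grey, 4), 3-day (orange, 4) and 7-day (red, 3) groups; the line is the group mean and the bar the SD, cut at 0. All 3 of the 7-day livers lie above every control liver for Notch1, Notch2, Jag1 and Hes1, and the 7-day mean of Hey1 rests on 1 liver at 5.47 eRPKM.

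A gene was called changed where limma's adjusted p was under 0.01 and the log2 fold change exceeded 0.5 in size, the thresholds of the study, in a fit of log2(eRPKM + 0.5) over 14244 genes; fold changes on this scale understate those of low genes. At 7 days 4 of the 9 tested genes had risen against control (Jag1, Hes1, Notch1 and Notch2) and none had fallen. Of all tested genes 23.8% were called in that comparison, 18.0% as higher and 5.77% as lower. At 3 days none of the 9 was called, where 0.0421% of all genes were. Between 7 and 3 days 3 of the 9 were called, all higher (Jag1, Notch1 and Notch2), against 19.3% of all genes, 14.0% as higher. The 3 comparisons share livers and are not independent of each other.

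Jag1, a transmembrane ligand on chromosome 2 (mm9 annotation, 2:136907192-136942380, minus strand), had the largest difference of the 10 genes. It was measured at 4.70, 3.96, 2.82 and 2.93 eRPKM in the 4 control livers and at 3.37, 3.23, 3.14 and 2.54 eRPKM in the 3-day livers. The 7-day livers held 23.9, 25.8 and 13.5 eRPKM, from 390 to 838 reads per library. Every 7-day liver was well above every other liver, and the control and 3-day ranges overlapped. The mean was 5.85 times the control mean, with a log2 fold change of 2.37 ± 0.26 (SE; 95% CI 1.80 to 2.93; limma adjusted p = 3.21e-05). That fold change lay at the 96.3th percentile of all tested genes. Against the 3-day livers the log2 fold change was 2.55 (limma adjusted p = 2.61e-05), and at 3 days against control it was -0.18 (95% CI -0.71 to 0.34; limma adjusted p = 0.803). The call at 7 days, against either group, was kept under each of the 28 alternative settings run, with log2 fold changes between 1.99 and 2.65 against control.

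Notch1, the receptor best known from endothelial and T-cell biology, lies on the same chromosome (2:26313423-26372183, minus strand). Its level was 9.45, 9.64, 8.72 and 5.57 eRPKM in the controls and 7.43, 7.76, 10.1 and 10.4 eRPKM at 3 days. At 7 days it was 16.8, 20.0 and 20.0 eRPKM. The 7-day livers again lay apart from the others, while the 3-day and control values intermingled. The log2 fold change at 7 days was 1.16 ± 0.22 against control (limma adjusted p = 0.00114) and 1.06 against 3 days (limma adjusted p = 0.00274), and it was 0.10 at 3 days against control (limma adjusted p = 0.871). Without control liver 4 the difference from control was 0.99. With library depth as a covariate it was 0.80 and no longer called (limma adjusted p = 0.0158), and against the 3-day livers the call was lost in 5 of the 28 alternatives, among them without 7-day liver 2 or 3. Exons of Notch1 share 1068 bases with the opposite-strand gene 0610009E02Rik and 414 with Gm13568, and the unstranded libraries cannot separate their reads.

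Notch2 (3:97817461-97954290, plus strand), the receptor whose loss disturbs intrahepatic bile duct formation, was measured at 24.3, 22.8, 22.0 and 13.2 eRPKM in the controls. The 3-day livers held 17.2, 20.8, 27.4 and 21.9 eRPKM and the 7-day livers 36.2, 39.5 and 40.7 eRPKM. All 7-day values exceeded all others, and the 3-day values lay on both sides of the controls. Its log2 fold change was 0.93 ± 0.21 against control (limma adjusted p = 0.00427) and 0.83 against 3 days (limma adjusted p = 0.00966). These calls were the least secure of those made among the 10 genes: against control the call was lost in 7 of 28 alternatives, including the removal of any 1 of the 7-day livers, where the limma adjusted p was 0.0135, 0.0187 or 0.0222. Against 3 days it was lost in 18 of 28, with log2 fold changes from 0.55 to 0.95. At 3 days against control the difference was 0.10 (95% CI -0.33 to 0.53), and -0.0085 under quantile normalization.

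Over the 11 livers, the profiles of Notch1 and Notch2 differed by a root-mean-square of 0.155 log2 units after each was set to 0 at its control mean. The same measure was 0.739 between Jag1 and Notch1, so the receptors resembled each other more than either did the ligand. It was 0.568 between Hes1 and Notch1 and 0.715 between Hes1 and Jag1. By this measure, among genes with a mean of at least 1 eRPKM, the profile nearest to Notch1 was Itga5 (0.121), an integrin subunit, followed by Kctd10 (0.122) and Hspg2 (0.124), which encodes perlecan. The nearest to Notch2 were Ctdspl (0.0904), Reep1 (0.110) and Gmeb1 (0.112). Nearest to Jag1 were Zfp651 (0.212), Tmc3 (0.265) and Slc24a3 (0.291), and nearest to Hes1 were Mtbp (0.257), Cdk6 (0.281), a cell-cycle kinase, and Tmem164 (0.314).

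The promoter windows of the called receptors and ligand are shown because these 3 genes were higher together at 7 days. They run from 250 bases before to 50 bases after the RefSeq start site in GRCm38.p6, at chr2:26503773-26504072 on the minus strand for Notch1, chr3:98013288-98013587 on the plus strand for Notch2 and chr2:137116471-137116770 on the minus strand for Jag1. Each is written 5' to 3' along its gene, with any match to CATTCC or its reverse complement GGAATG, the core bound by TEAD factors, the DNA-binding partners of YAP, or to TGGGAA or TTCCCA, the core bound by Rbpj, in capitals.
Notch1: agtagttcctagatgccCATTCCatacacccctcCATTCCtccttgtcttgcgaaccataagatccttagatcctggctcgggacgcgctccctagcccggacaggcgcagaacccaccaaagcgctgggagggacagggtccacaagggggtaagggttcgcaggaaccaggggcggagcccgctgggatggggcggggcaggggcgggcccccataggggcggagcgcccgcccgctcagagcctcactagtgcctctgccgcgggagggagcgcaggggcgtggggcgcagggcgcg
Notch2: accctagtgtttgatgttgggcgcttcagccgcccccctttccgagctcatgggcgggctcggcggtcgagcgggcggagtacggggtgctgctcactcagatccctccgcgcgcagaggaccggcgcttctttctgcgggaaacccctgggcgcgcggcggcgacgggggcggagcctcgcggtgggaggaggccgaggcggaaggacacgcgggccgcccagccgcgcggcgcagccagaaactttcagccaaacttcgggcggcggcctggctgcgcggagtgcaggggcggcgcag
Jag1: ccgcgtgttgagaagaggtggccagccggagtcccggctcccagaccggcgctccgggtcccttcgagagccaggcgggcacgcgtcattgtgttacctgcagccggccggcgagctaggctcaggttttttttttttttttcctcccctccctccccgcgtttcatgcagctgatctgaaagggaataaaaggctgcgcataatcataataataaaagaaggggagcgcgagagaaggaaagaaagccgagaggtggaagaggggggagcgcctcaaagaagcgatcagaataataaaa
The Notch1 window held 2 TEAD cores on its own strand, with first bases at -233 and -216 from the start site, and no Rbpj core. The Notch2 and Jag1 windows held neither motif. Among all 32851 promoter windows 14.7% held a TEAD core, 25.6% an Rbpj core and 5.08% both, so matches of this kind are common and describe the letters only. Of the 10 genes 7 had a window, 2 in the case of Rbpj, which is shown further on.

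Among the Notch receptors a second point is the small share of Notch3, a receptor of mural cells around vessels. It was measured at 2.54, 1.18, 1.12 and 1.27 eRPKM in the controls and 0.779, 1.82, 1.26 and 1.26 at 3 days. The 7-day livers held 0.661, 1.36 and 0.414 eRPKM, of which 2 lay below every control and 1 within their range. The log2 fold change at 7 days was -0.64 against control (95% CI -1.35 to 0.07) and was not called (limma adjusted p = 0.144). The interval holds both no difference and a fall of more than 2-fold, and the counts were low, 13 to 81 reads per library. Notch3 shares 488 exon bases with the opposite-strand gene Gm17276.

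Summed over Notch1 to Notch4, receptor transcripts had a median of 34.0 eRPKM in the controls, 33.7 at 3 days and 64.9 at 7 days. Notch2 made up most of this sum in every liver, at 63.2 to 67.0% in the controls and 60.9 to 63.7% at 7 days. The share of Notch1 was 25.0 to 27.4% in the controls, 24.7 to 28.9% after 3 days and 29.5 to 30.8% after 7 days, and that of Notch3 was 3.34 to 6.72%, 2.86 to 5.78% and 0.635 to 2.09%. The 7-day livers therefore lay above all others for the Notch1 share and below all others for the Notch3 share.

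Ligand transcripts, summed over Jag1, Jag2, Dll1 and Dll4, had a median of 14.7 eRPKM in the controls, 10.5 at 3 days and 33.7 at 7 days. Jag1 made up 20.1 to 41.9% of the sum in the controls and 22.1 to 34.0% at 3 days. At 7 days it made up 60.1 to 71.0%, above every other liver. Dll4 made up 25.7 to 42.5% of the sum in the controls and 8.57 to 17.5% at 7 days, while its own level overlapped between groups. These shares are a description and were not tested.

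**Figure D2:**
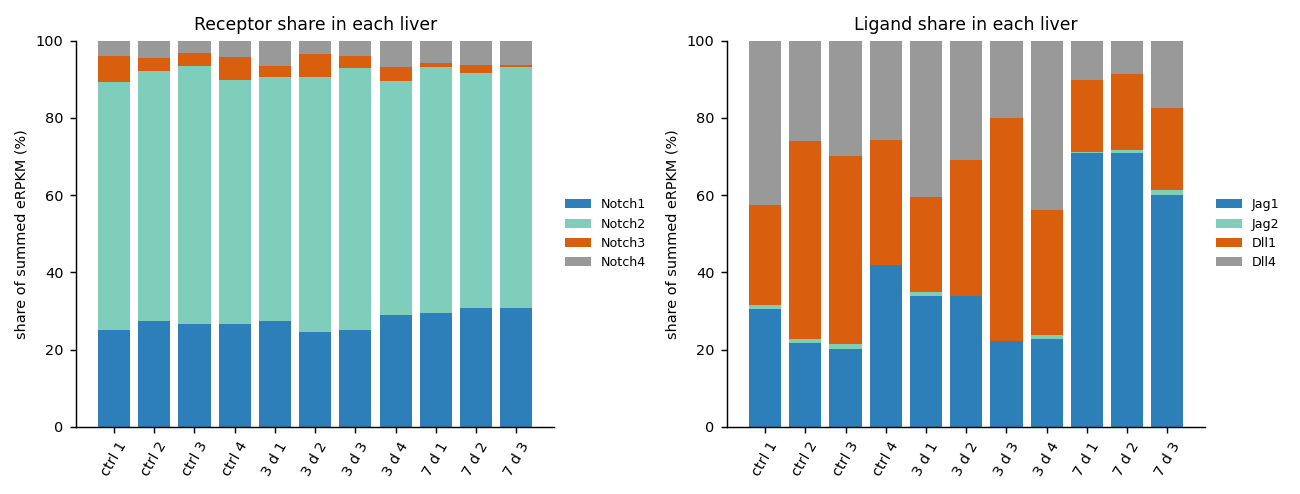
Share (%) of each receptor in the summed eRPKM of Notch1 to Notch4 (left) and of each ligand in the sum of Jag1, Jag2, Dll1 and Dll4 (right), 1 bar per liver. Notch2 holds the largest receptor share in all 11 livers, and Jag1 holds 60.1 to 71.0% of the ligand sum in the 7-day livers against at most 41.9% elsewhere.

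Dll4, the Delta-like ligand of endothelial cells (2:119151520-119161698, plus strand), did not follow Jag1. Its level was 6.57, 4.75, 4.20 and 1.80 eRPKM in the controls, the last from 8 reads, and 4.01, 2.94, 2.83 and 4.89 at 3 days. At 7 days it was 3.41, 3.12 and 3.92 eRPKM, inside the control range in every liver. The log2 fold change at 7 days against control was -0.17 (95% CI -0.91 to 0.57; limma adjusted p = 0.717), and it was 0.05 without control liver 1. Dll4 shares 214 exon bases with the opposite-strand gene Gm14207. Jag2, a second Jagged ligand, was close to undetected: each library held between 0 and 8 reads, and the levels were 0 to 0.199 eRPKM in the controls, 0 to 0.130 after 3 days and 0.0893 to 0.322 after 7 days. Jag2 was not in the limma fit, and the exact two-sided permutation test of 7 days against control gave p = 0.4. No difference in Jag2 was detectable at this depth.

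Hes1 (16:30064470-30067882, plus strand), a basic helix-loop-helix repressor and the most widely used readout of Notch activity, was measured at 11.8, 9.84, 11.1 and 4.81 eRPKM in the controls. At 3 days the values were 10.8, 15.1, 17.8 and 5.81 eRPKM and at 7 days 31.4, 22.1 and 39.3 eRPKM. The 3-day livers spread across and above the control range, with 2 of 4 above every control, and the 7-day livers were above all others. Hes1 had a log2 fold change of 1.70 ± 0.37 at 7 days against control (limma adjusted p = 0.00336; mean 3.29 times that of the controls). It was 0.34 at 3 days against control (95% CI -0.41 to 1.09; limma adjusted p = 0.728), and 1.36 between 7 and 3 days, which fell short of the threshold (limma adjusted p = 0.0141). That last difference was called in 6 of 28 alternatives, among them the looser threshold of adjusted p under 0.05. The call against control was lost in 5 of 28 alternatives: with depth as a covariate (limma adjusted p = 0.0640), among female livers only (0.0254), against the 2 deepest controls (0.0276), and without 7-day liver 1 (0.0151) or 3 (0.0218).

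Hey1 and Heyl, the Hairy-related repressors that Notch induces in endothelial and mural cells, were low and were called in no comparison. Whether their changes differ from that of Hes1 or from each other was not tested. Hey1 was measured at 1.35, 0.720, 0.366 and 0.352 eRPKM in the controls and 0.991, 1.09, 0.598 and 0.598 at 3 days. At 7 days it was 0.903, 5.47 and 0.497 eRPKM, from 11, 74 and 6 reads. A single 7-day liver thus exceeded all others while its companions lay within the control range. The log2 fold change against control was 0.84 (95% CI -0.28 to 1.95; limma adjusted p = 0.219), and without 7-day liver 2 the difference between 7 and 3 days turned to -0.14. That same liver had the highest values of the 7-day group for Heyl and Notch3 as well. Heyl was measured at 2.25, 1.25, 1.33 and 0.514 eRPKM in the controls, 1.12, 0.826, 0.814 and 0.233 at 3 days and 0.559, 1.19 and 0.685 at 7 days. The groups overlapped, and its log2 fold change was -0.53 at 3 days (limma adjusted p = 0.564) and -0.43 at 7 days (95% CI -1.22 to 0.37; limma adjusted p = 0.384) against control.

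Rbpj (5:53947018-54048684, plus strand), the factor through which all Notch receptors act on DNA, was measured at 10.4, 9.79, 8.18 and 5.60 eRPKM in the controls and at 6.26, 7.67, 8.93 and 7.28 at 3 days. At 7 days it was 9.86, 9.41 and 9.53 eRPKM, within the control range and above each 3-day liver. It was called in no comparison. The log2 fold change at 7 days was 0.20 against control (95% CI -0.28 to 0.68; limma adjusted p = 0.502), with a sign that turned under other scalings (-0.053 with median-ratio size factors, -0.36 with quantile normalization), and 0.34 against 3 days (limma adjusted p = 0.244; -0.19 with quantile normalization). Its first promoter window, at chr5:53590096-53590395 on the plus strand, was the only one of the 8 windows to hold both motifs, and is shown for that reason.
Rbpj: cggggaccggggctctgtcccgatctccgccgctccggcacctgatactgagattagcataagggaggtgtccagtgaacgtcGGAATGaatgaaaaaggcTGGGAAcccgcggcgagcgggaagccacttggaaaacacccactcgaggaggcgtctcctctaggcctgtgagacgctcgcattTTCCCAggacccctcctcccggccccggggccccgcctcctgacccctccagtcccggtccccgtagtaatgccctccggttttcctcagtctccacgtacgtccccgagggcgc
It held an Rbpj core on each strand, at -149 and -65, and a TEAD core on the reverse strand at -167, where 5.08% of all windows held both motifs.

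**Figure D3:**
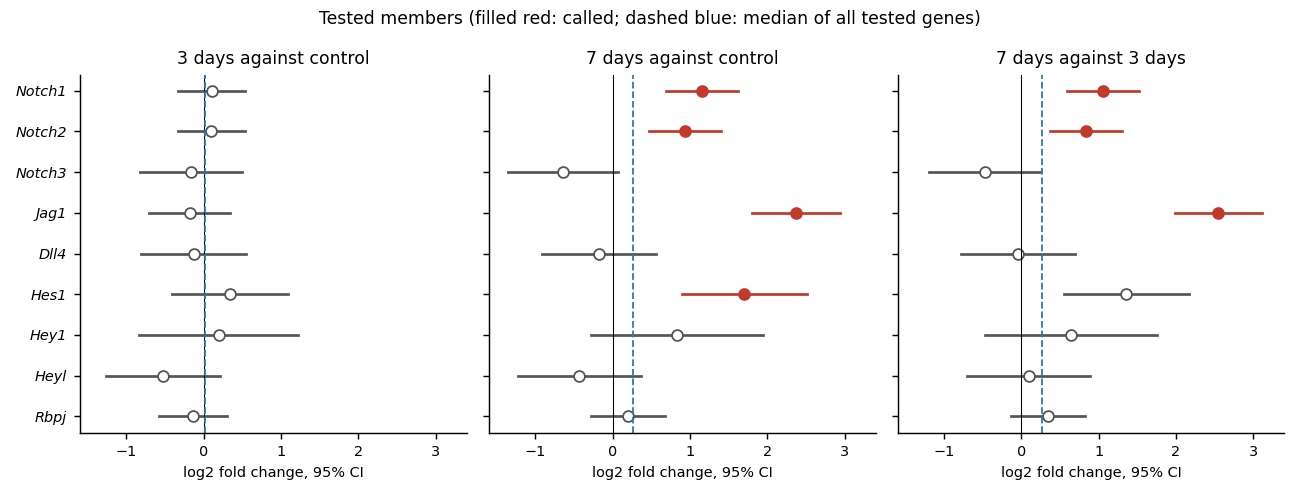
Log2 fold change with its 95% CI for the 9 tested genes in the 3 comparisons, on log2(eRPKM + 0.5); filled red points were called and the dashed line is the median of all 14244 tested genes. At 3 days every interval spans 0, and at 7 days Jag1, Hes1, Notch1 and Notch2 stand to the right of the median of 0.26.

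Read against all genes, the median log2 fold change of the 9 genes was -0.13 at 3 days and 0.84 at 7 days against control, where the median over all tested genes was 0.02 and 0.26. The median of 0.84 is the value of Hey1 itself and rests on 7-day liver 2: without that liver the median of the 9 genes was 0.21, as was that of all tested genes. The shift of the whole table to the right at 7 days depended on the scaling: 75.7% of the calls were higher as deposited, 60.9% with median-ratio size factors, where the overall median was 0.03, and 50.5% with quantile normalization, where it was -0.08. Relative to the overall median, the 7-day fold changes were 2.11 for Jag1, 1.44 for Hes1, 0.90 for Notch1 and 0.67 for Notch2 on the log2 scale. All 4 calls were kept under both of these scalings.

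By the ranges alone, 4 of the 9 genes had 7-day livers that did not overlap the controls, where 50.0% of all tested genes did not, and 5 of 9 (the same 4 and Rbpj) did not overlap the 3-day livers, where 45.1% did not. None was separated at 3 days, where 5.64% of all genes were. These shares are near those of all genes, so separation of the ranges was not particular to the pathway. The exact two-sided permutation test gave p = 0.0286 for each of Jag1, Hes1, Notch1 and Notch2 at 7 days against control, the smallest value that 3 against 4 livers allow, and 0.122 after adjustment over the 30 tests of 10 genes in 3 comparisons.

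Beyond the 10 genes, 67 further genes of the pathway were listed by role, of which 66 were in the table and 61 were tested. Against control, 14 were called higher and 3 lower at 7 days, 27.9% of those tested, near the 23.8% of all tested genes. The median log2 fold change was 0.62. Between 7 and 3 days 11 were called higher and 3 lower, 23.0% of those tested against 19.3% of all. At 3 days against control none was called by limma or by limma-voom on the recovered reads, and 6 had an unadjusted p under 0.05, among them Dlk2 and Neurl1b, where 12.1% of all tested genes did.

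**Figure D4:**
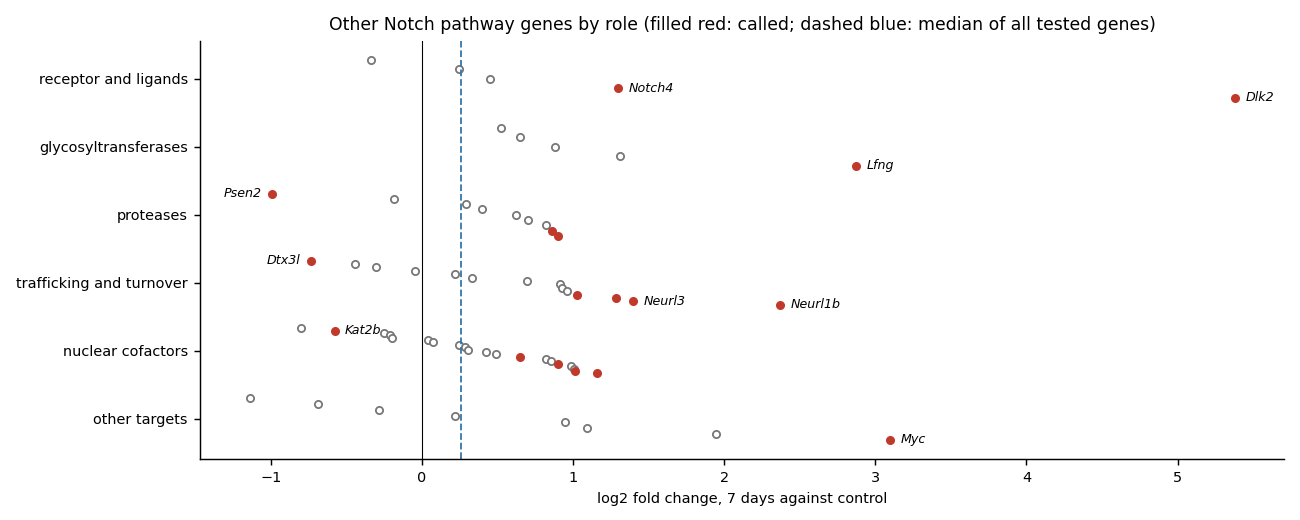
Log2 fold change at 7 days against control of the 61 other tested pathway genes, 1 point per gene in a row per role; filled red points were called and the dashed line is the median of all tested genes. Dlk2, Myc, Lfng and Neurl1b lie farthest to the right, and Psen2, Dtx3l and Kat2b are the called genes on the left.

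Among the other receptor and ligand genes 2 of 5 tested were called at 7 days against control, both higher. In that comparison 23.8% of all tested genes were called, 18.0% as higher. Dlk2, a non-canonical ligand that lacks the DSL domain of the Jagged and Delta-like proteins, held 0.148, 0.210, 0 and 0 eRPKM in the controls, at most 2 reads per library. At 3 days it held 0.216, 3.50, 5.95 and 0.470 eRPKM, and at 7 days 15.9, 31.2 and 26.9 eRPKM. Each 3-day liver was above each control, though 3-day liver 1 held a single read, and each 7-day liver was above each 3-day liver. Its log2 fold change at 7 days was 5.38 (limma adjusted p = 4.59e-05), a size set largely by the value added before the logarithm: it was 4.51 with 1 added and 7.16 with 0.1 added. At 3 days it was 1.82 and not called. Notch4, the endothelial receptor, was at 0.885 to 1.56 eRPKM in the controls and 3.23 to 4.04 at 7 days, with a log2 fold change of 1.30 (limma adjusted p = 0.00236) that was lost in 6 of 28 alternatives. Dll1 overlapped between the groups, with 2.26 to 9.36 eRPKM in the controls and 4.74 to 7.14 at 7 days.

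Of the enzymes that add sugars to Notch receptors and tune their ligand preference, 1 of 5 was called. The share among all tested genes was 23.8%. Lfng, the Lunatic fringe glycosyltransferase, was measured at 2.85, 4.54, 4.61 and 1.90 eRPKM in the controls and 2.53, 3.71, 3.55 and 7.21 at 3 days. At 7 days it was 26.2, 23.1 and 33.5 eRPKM, far above every other liver. Its log2 fold change was 2.87 ± 0.34 against control (limma adjusted p = 4.79e-05) and 2.64 against 3 days (limma adjusted p = 0.000116). Like those of Jag1 and Dlk2, its call against control was kept in all 28 alternatives. Manic and Radical fringe (Mfng, Rfng), Pofut1 and Poglut1 also had all 7-day livers above all controls but missed the threshold, with log2 fold changes of 1.31, 0.88, 0.65 and 0.52. Such separation was common, as 50.0% of all tested genes had 7-day livers all above or all below the controls.

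The proteases that cut the receptor moved in both directions, with 2 called higher and 1 lower of 9. Together 33.3% were called, where 23.8% of all tested genes were. Adam10, the main protease of ligand-dependent cleavage, lay between 17.6 and 23.3 eRPKM in the controls and between 37.2 and 38.9 at 7 days, a log2 fold change of 0.90 (limma adjusted p = 0.00187) whose call was lost in 4 of 28 alternatives. Adam17, a related sheddase, had a log2 fold change of 0.86 (limma adjusted p = 0.00298), and its call was not followed singly through the alternatives. Psen2, a catalytic subunit of gamma-secretase, went the other way, with 38.1 to 47.8 eRPKM in the controls against 19.1 to 26.2 at 7 days, a log2 fold change of -0.99 (limma adjusted p = 0.0043). The call for Psen2 was lost in 10 of 28 alternatives, among them without control liver 1, 2 or 4 and without 7-day liver 1 or 2.

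Among 14 genes of receptor and ligand trafficking and turnover, 4 were called higher and 1 lower. That was 35.7% of these genes, where 23.8% of all tested genes were called. The higher ones were 3 of the Neuralized family and Mib2, E3 ubiquitin ligases, and the Neuralized and Mind bomb families are known for driving ligand endocytosis. Neurl1b was at 1.29, 1.91, 1.43 and 1.76 eRPKM in the controls, 2.18, 3.76, 11.6 and 4.17 at 3 days and 11, 13.3 and 7.35 at 7 days. All livers of either YAP group exceeded all controls, and the YAP groups overlapped each other. Its log2 fold change was 2.37 at 7 days (limma adjusted p = 0.000724), and 1.28 at 3 days, not called. Neurl3 had 6.83 to 8.88 eRPKM in the controls against 17.6 to 28.7 at 7 days (log2 fold change 1.39, limma adjusted p = 0.000525), and Mib2 had a log2 fold change of 1.02 (limma adjusted p = 0.00284), lost in 5 of 28 alternatives. Neurl1a, at 0.353 eRPKM on average in the controls, had one of 1.28. Dtx3l, a Deltex-family ligase, was called lower (-0.73), while Numb and Itch were not called. The calls of Neurl1a and Dtx3l were not followed singly through the alternatives.

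Of 20 nuclear cofactors 4 were called higher and 1 lower, a share near the 23.8% of all tested genes. The higher ones were the co-activator Maml2 (log2 fold change 1.16, lost in 14 of 28 alternatives), the acetyltransferase Kat2a (1.01, lost in 4 of 28) and the co-repressors Ctbp1 (0.65) and Ctbp2 (0.90, lost in 11 of 28). Kat2b, the paralog of Kat2a, was called lower (-0.58). The calls of Ctbp1 and Kat2b were not followed singly through the alternatives. The median log2 fold change of the role group was 0.36, where that of all tested genes was 0.26.

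Among 8 other genes known as Notch targets in some tissue, only Myc was called in the 7-day comparison with control. That was 12.5%, where 23.8% of all tested genes were called. Myc, a growth-promoting transcription factor with many other inputs, was measured at 8.02, 1.92, 3.57 and 1.87 eRPKM in the controls and 2.93, 2.48, 14.9 and 1.70 at 3 days. The 7-day livers held 49.1, 16 and 39.7 eRPKM, all above every other liver, with 7-day liver 2 close to the highest 3-day value. Against control its log2 fold change was 3.09 ± 0.64 (limma adjusted p = 0.00231), and the call was lost in 5 of 28 alternatives: with depth as a covariate, among female livers only, against the 2 deepest controls, and without 7-day liver 1 or 3. Ccnd1 (1.95, limma adjusted p = 0.0138) and the biliary factor Sox9 (0.95, limma adjusted p = 0.0318) missed the threshold. The canonical targets Nrarp (0.22), Hey2 (-0.28) and Hes5 (-1.14) were not called either, and Hey2 and Hes5 had at most 9 and 15 reads per library. Hes6, more abundant, lay at 45.1 to 97.6 eRPKM in the controls and 38.4 to 40.7 at 7 days. It was not called (-0.69, limma adjusted p = 0.0745). Within this role group the other Hes, Hey and Nrarp genes thus gave no call like that of Hes1. Whether their changes differ from that of Hes1 was not tested.

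Marker genes of liver cell types are described here by their summed levels. Calls in these lists are at 7 days against control unless stated, where 18.0% of all tested genes were called higher and 5.77% lower. The summed level of 12 cholangiocyte markers was 58.8 to 96.8 eRPKM in the controls, 99.3 to 116 after 3 days and 126 to 182 after 7 days, and 3 of 11 tested were called higher at 7 days. Cldn4 was the only one at 0 in all controls, and Krt19, the defining keratin, did not exceed 7.19 eRPKM in any liver. Spp1, Onecut1 and Slc4a2, which are not confined to bile ducts, made up most of the sum in every group. The other 9 markers summed to 7.05 to 15 eRPKM in the controls, 6.75 to 18.7 after 3 days and 36.4 to 43.0 after 7 days, and at 3 days none of the 11 tested markers had livers that were all above or all below the controls. Prom1 was the largest of these 9 in every 7-day liver, at 14.5 to 23.5 eRPKM. It held 0.768 to 6.23 eRPKM in the controls and 0.635 to 11.9 after 3 days. The 12 endothelial markers summed to 169 to 291 eRPKM in the controls and 274 to 312 at 7 days. Of the 12, 2 (Cdh5 and Lyve1) were called higher, 16.7%, near the 18.0% of all tested genes. Clec4g went the other way, at 51.4 to 87.4 eRPKM in the controls and 30.5 to 43.0 at 7 days. It was called lower against 3 days but not against control. The 12 stellate and mural markers summed to 197 to 251 in the controls and 128 to 146 at 7 days, and 2 of 11 tested were called lower. No endothelial or mural marker was at 0 in all livers of a group.

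Of the immune lists, 11 macrophage markers summed to 301 to 556 eRPKM in the controls, 361 to 626 after 3 days and 1112 to 1186 after 7 days, with 9 of 11 called higher. Of the 10 lymphocyte markers 2 were called higher, 20%, near the 18.0% of all tested genes. The list summed to 7.69 to 19.6 in the controls against 34.0 to 43.0 at 7 days. Ptprc, a gene of all leukocytes, carried this difference, at 4.65 to 9.63 eRPKM in the controls and 25.2 to 31.9 at 7 days, while the sums of the other 9 overlapped (3.04 to 11 and 8.82 to 13.6). The 12 hepatocyte markers, among them Alb and Ttr, had the largest sum of the lists in every group, at 2244 to 5916 eRPKM in the controls and 1427 to 1709 at 7 days, with 6 of 12 called lower. All 8 proliferation markers were called higher at 7 days, their sum being 8.67 to 23.0 in the controls, 18.3 to 133 after 3 days and 133 to 204 after 7 days. The part of these cell populations in the differences of Jag1, Hes1, Notch1 and Notch2 was not tested.

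**Figure D5:**
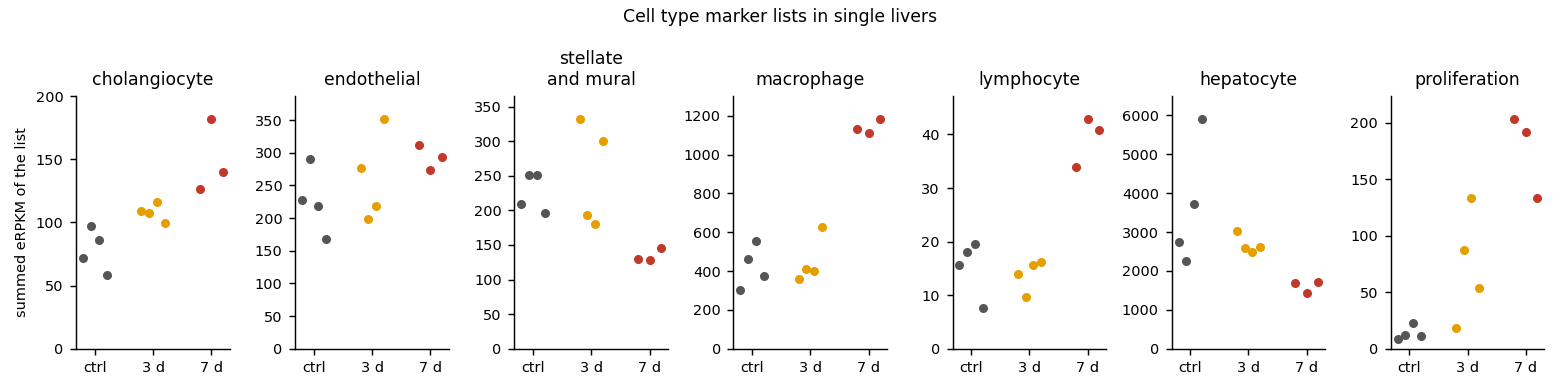
Summed eRPKM of each marker list in single livers (grey control, orange 3 days, red 7 days; linear axes from 0). The cholangiocyte, macrophage, lymphocyte and proliferation sums of the 7-day livers are at or above the highest sum of the other groups, the hepatocyte and stellate and mural sums lie below all others, and the endothelial sums overlap.

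Depth and sex also differed between the groups compared. All 3 of the 7-day libraries were deeper than 3 of the 4 controls and were from females. With log2 depth as a covariate, 1 of the 4 called genes, Jag1, kept its call against control. Among female livers only (2 controls, 2 at 3 days and 3 at 7 days) Jag1, Notch1 and Notch2 kept theirs. With log2 Xist as a covariate Jag1, Hes1 and Notch1 kept their calls, and Notch2 lost its call. Against the 2 deepest controls Jag1 and Notch1 kept theirs, and without control liver 4 all 4 did.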

How the data were processed

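Total RNA of 11 livers was sequenced with TruSeq RNA v2 libraries. According to the methods and the submitters' processing notes, the authors masked low-quality bases, aligned the reads with TopHat 2.0.8 to the mm9 assembly (unstranded), counted reads per gene with featureCounts 1.4.5-p1 and used DESeq2. The deposited values used here are eRPKM, the authors' reads per kilobase of exon scaled to library reads (RPKM); columns holding their own comparison of 7 days with control (mean, fold change, adjusted p) were not used. The steps of the eRPKM values gave whole reads for 100% of 177553 values above 0 (tolerance 0.1), from which depth was taken; precision is limited by these depths, which cover counting error only.

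The 14244 of 20893 genes that reached 0.5 eRPKM in 3 or more libraries were tested with limma 3.58.1 in R 4.3.3 (empirical Bayes with intensity trend) on log2(eRPKM + 0.5), all 3 groups in 1 fit and no covariate, with Benjamini-Hochberg adjustment over all tested genes. A call needed an adjusted p below 0.01 together with a log2 fold change larger in size than 0.5. The code was tested on simulated data. The exact test permuted livers between 2 groups. Labels do not say more of the replicates than their number, so p-values measure the spread between these livers. Positions are from GENCODE M1 on mm9, promoter sequences from RefSeq on GRCm38.p6. Python 3.11.15 was used for the other steps.

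The named pathway genes were those called at 7 days against control with a mean of at least 1 eRPKM, at most 12 by size; Adam17, Neurl1a, Ctbp1, Kat2b, Dtx3l and the genes not called were named in addition, to account for their role groups, after their values were seen. The 10 members, the gene lists and the tests were chosen with earlier results of these data known. Alternatives covered the pseudocount, filter, scaling, variance model, covariates, replicate block, samples in the fit and each library left out. A column suffix MF, used as 1 of the covariates, marked 3-day livers 1 and 4 and 7-day liver 2, and no control. One of the listed genes is not reported here.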

Additional observations from a re-analysis of the deposited data

Results flagged for a closer look

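In 4 control livers, Notch3 in control liver 1 (2.54 eRPKM against 1.12 to 1.27 in the others) stood apart by a gap of 0.892 of the group's range. Jag2 in control liver 4 (0 eRPKM against 0.174 to 0.199) stood apart by 0.875; that library was the shallowest, and the others held 2 to 4 reads of Jag2. Among the 3-day livers, the reads on genes of 3-day liver 1 (2703754) stood apart by 0.946. In all 22 sets were examined and 3 passed Dixon's 95% limit for 4 samples, which chance passes in about 1 of 20.

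Levels differed between 7 and 3 days of induction for 3 genes, by limma's test of these groups. Log2 fold changes were 1.06 for Notch1 (limma adjusted p = 0.00274), 0.83 for Notch2 (limma adjusted p = 0.00966) and 2.55 for Jag1 (limma adjusted p = 2.61e-05). Each had 3 of 3 livers at 7 days above all 3-day livers. The 7-day livers were also all from females, with deeper libraries than those at 3 days. Among females only, or with depth as a covariate, Jag1 alone kept this call. Both times share the controls fed for 7 days.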

How the results depend on the processing

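Of the members called at 7 days against control (4), 1 remained with log2 depth as a covariate and 2 against the 2 deepest controls; leaving out 1 library gave 2 to 4, with 2 without 7-day liver 1 or 3. Of those called between 7 and 3 days (3), 1 was left with depth as a covariate and 1 among females, and 1 to 4 with 1 library left out (1 without 7-day liver 2 or 3). For the other pathway genes at 7 days against control (17), the count was 5 with depth, 6 among females, 6 against the 2 deepest controls, 31 at adjusted p under 0.05 and 8 to 19 with 1 library left out (lowest 10, 9 and 8 without 7-day liver 1, 2 or 3). Between 7 and 3 days (14) it was 7 with the replicate block, 6 with Xist as a covariate, 7 with depth, 3 among females, 9 in a fit of the 2 groups, 29 at adjusted p under 0.05 and 4 to 23 with 1 library left out (4 without 7-day liver 3, 23 without 3-day liver 3). The cause was not tested. No call arose at 3 days under any setting.

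Signs that turned were all of differences that were not called. For 3 days against control these were Notch1 against the 2 deepest controls (-0.11; -0.067 to 0.18 with 1 library left out), Notch2 with quantile normalization (-0.0085), depth (-0.0022) and the 2 deepest controls (-0.12; -0.094 to 0.20), Notch3 among females (0.10; -0.30 to 0.046), Hes1 among females (-0.028), Hey1 with the column suffix MF, of unstated meaning, as a covariate (-0.26) and the 2 deepest controls (-0.21), and Dll4 (-0.45 to 0.088). For 7 days against control they were Rbpj with size factors (-0.053), quantile normalization (-0.36), depth (-0.18) and the 2 deepest controls (-0.072), and Dll4 (-0.49 to 0.046). For 7 against 3 days they were Heyl with size factors (-0.053), quantile normalization (-0.40), the replicate block (-0.15) and depth (-0.18; -0.14 to 0.24), Rbpj with quantile normalization (-0.19), Dll4 (-0.14 to 0.092) and Hey1 (-0.14 to 1.16).

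Livers of the same number deviated together with correlations of -0.222 to 0.269, so the numbers were not taken as pairs. With the replicate block 3 members were called at 7 days against control and 2 between 7 and 3 days. Depth limits Jag2, Heyl, Hey1 and Notch3 most, at 0 to 81 reads per library.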
